A study of Gallus gallus with 12 samples.

Results

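Transcripts of the annexins and of dysferlin, proteins that reseal torn cell membranes, were measured in the Pectoralis major, the main flight muscle, of 12 broilers of the Ross 708 hybrid, which is bred for meat. The genes were chosen by name as ANXA1, ANXA2, ANXA5, ANXA6, ANXA7, ANXA11, DYSF, MYOF and CAV3, and a gene was used where a row of the array table carried its symbol alone. Of these 9 genes 7 were found, each with 1 row, among 11528 genes with a symbol of their own. MYOF and CAV3 are not analysed here, so the set consists of 6 annexins and dysferlin. The choice of genes was made with earlier results of these data known, and so their counts are descriptions.

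All birds were labelled male, came from 1 flock and weighed 3.7 kg on average. By eye, 6 fillets were classed as normal at the slaughterhouse and 6 as showing both white striping and wooden breast, in which pale stripes follow the fibres and the fillet hardens. Replicates are separate birds with 1 array each (n = 6 in either group). All levels are log2 values, and 1 unit is a doubling.

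Muscle fibres tear their outer membrane, the sarcolemma, when they contract under load, and calcium then enters through the tear. Annexins are cytosolic proteins that bind acidic phospholipids when calcium rises, and they gather at the tear together with dysferlin, a membrane-anchored calcium sensor, to form a cap and to fuse vesicles into a patch. Annexins are also made by fibroblasts, endothelial cells and macrophages, and in a piece of muscle a change in the number of such cells and a change in RNA per cell cannot be told apart. The arrays measure transcripts, not the proteins at the membrane.

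Before any comparison, 3 arrays of the normal group went against their label. HINTW, a gene of the female W chromosome, stood between 8.51 and 9.41 in normal birds 1, 4 and 5, and between 2.46 and 2.99 on the other 9 arrays. The 3 arrays all lie in the normal group, so the differences of the annexins and of DYSF are given with and without them. Fast fibre markers, of which 6 of 10 were measured, had bird means of 10.3 to 10.6 in normal and 10.2 to 10.95 in affected muscle (0 of 6 past the test described below, median difference -0.02), with ACTA1, the skeletal actin, at a mean of 12.6 in both groups, and with TNNI2 and TNNC2, fast troponins, above 11 in both. PVALB of the same list averaged 4.36 in normal and 5.19 in affected birds, a difference of 0.83 ± 0.47 (log2 ± SE). TNNI2 had a difference of -0.20 ± 0.07. Array medians ran from 4.05 to 4.16.

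The design compares affected with normal muscle. The 4 genes with the greatest mean differences were ANXA1, ANXA2, ANXA5 and ANXA7, which averaged 2.78, 1.85, 1.52 and 1.48 times their normal level in affected muscle. For ANXA6, ANXA11 and DYSF the ratio of affected to normal was 1.12, 0.993 and 0.997. In limma's fit over all 20804 rows, with Benjamini-Hochberg adjustment, 0 of the 7 genes passed an adjusted p of 0.05, where 1.14% of all rows did. At an unadjusted p under 0.05 the count was 4 of 7, where 22.1% of all rows reached it. The median difference of the 7 genes was 0.57, beside -0.03 over all rows. Without normal birds 1, 4 and 5 the count past the adjusted threshold was again 0 of 7 (0.0144% of all rows), and 4 of 7 had an unadjusted p under 0.05 (17.7% of all rows).

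**Figure D1:**
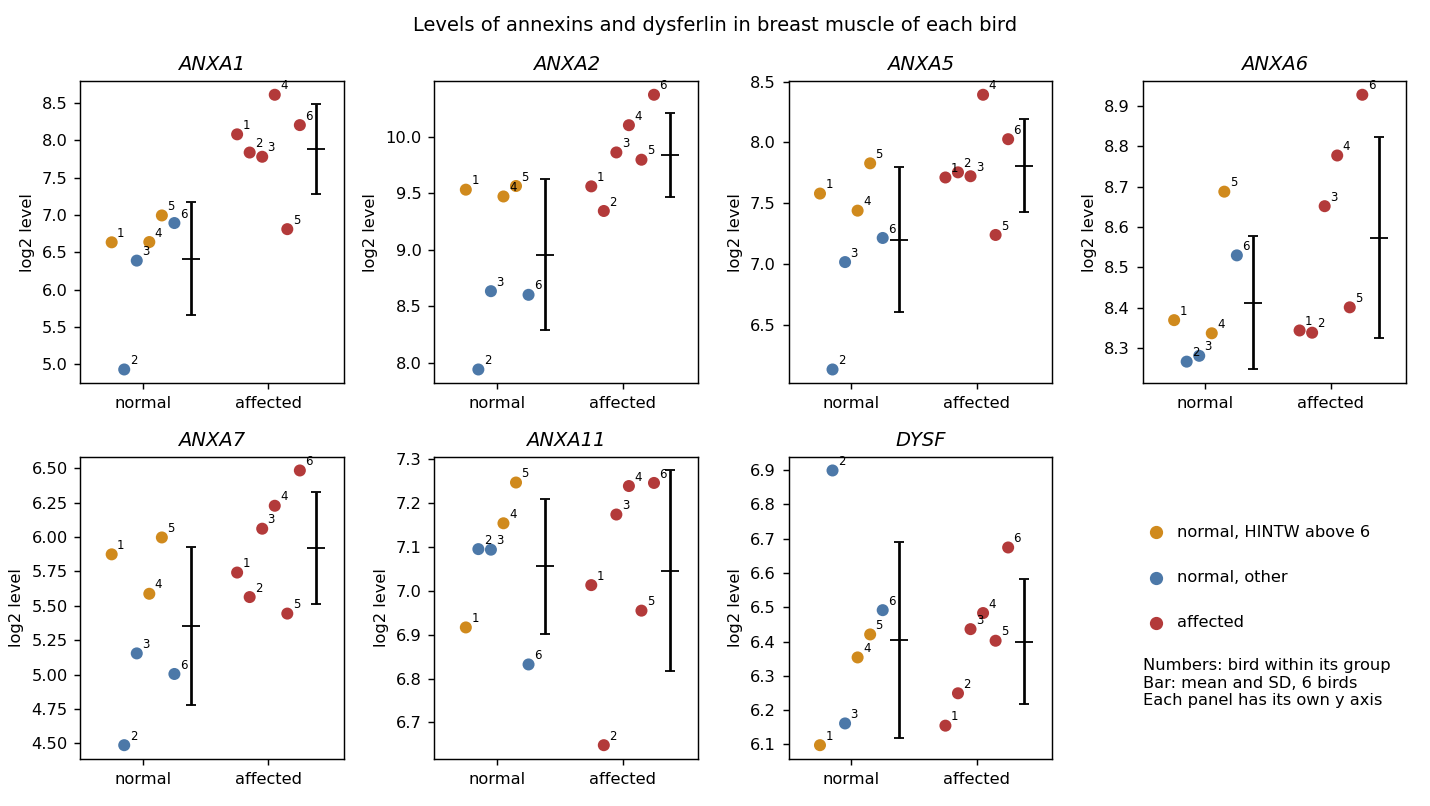
Log2 level (y axis, 1 panel per gene, each with its own scale) in each of 6 normal and 6 affected birds, numbered within their group, with the mean and SD of the group as a bar. Orange points are the 3 normal birds with HINTW above 6. In ANXA2, ANXA5 and ANXA7 these 3 lie above the other 3 normal birds, and normal bird 2 is lowest in ANXA1, ANXA2, ANXA5, ANXA6 and ANXA7 and highest in DYSF.

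ANXA1, which in mammals also restrains inflammation by acting on a formyl peptide receptor of leukocytes, had the greatest difference of the set. Normal birds 1 to 6 stood at 6.63, 4.93, 6.39, 6.64, 6.99 and 6.89, and affected birds 1 to 6 at 8.08, 7.84, 7.78, 8.61, 6.81 and 8.21. Affected bird 5 lay within the normal range, and the other 5 affected birds lay above every normal bird. The means were 6.41 ± 0.76 (SD, n = 6) and 7.89 ± 0.61. The difference was 1.48 ± 0.35 (log2 ± SE), a 2.78-fold higher level with a 95% interval from 1.66 to 4.66, at an adjusted p of 0.0553 in limma. That value lies just outside the threshold. It came to 0.0391 when only rows above the median level were tested, 0.0446 with rows of 1 gene symbol, 0.0479 after median centring and 0.0427 with array weights. It was 0.0601 after quantile normalization and 0.0585 with limma's trend and robust options. With the mean of all rows of a gene it was 0.0571, and with the HINTW level as a covariate 0.0863. The call thus depended on these choices.

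The gene lies on chromosome Z, of which female birds have 1 copy and males a pair. Its mean in normal birds 1, 4 and 5 was 6.76 ± 0.21 (SD, n = 3) and in normal birds 2, 3 and 6 it was 6.07 ± 1.02. The lower mean rests on bird 2, and birds 3 and 6, at 6.39 and 6.89, lay on either side of birds 1 and 4. The part of Z copy number was not tested. Without those 3 arrays the difference of ANXA1 was 1.82 ± 0.44 (adjusted p = 0.119 in limma).

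ANXA2 pairs with the small calcium-binding protein S100A10, links membranes to actin and binds plasminogen at the cell surface. Its levels in normal birds 1 to 6 were 9.53, 7.94, 8.63, 9.47, 9.57 and 8.60, and in affected birds 1 to 6 they were 9.56, 9.34, 9.86, 10.1, 9.80 and 10.4. The normal birds fell apart in ANXA2: birds 1, 4 and 5 lay close together at the lower end of the affected range, and birds 2, 3 and 6 lay below every affected bird. Over all 12 birds the difference was 0.88 ± 0.27 (log2 ± SE, adjusted p = 0.0997 in limma).

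Leaving out normal birds 1, 4 and 5 changed that difference to 1.45 ± 0.23, a 2.73-fold higher level with a 95% interval from 1.92 to 3.89 (adjusted p = 0.071 in limma). In a fit of all 12 arrays as 3 sets, chosen after the data were seen, ANXA2 was higher in affected birds than in normal birds 2, 3 and 6 by 1.45 ± 0.21, and it passed (adjusted p = 0.0355 in limma), as 0.0529% of all rows did. In the same fit the affected birds differed from normal birds 1, 4 and 5 by 0.32 ± 0.21 (adjusted p = 0.431), with a 95% interval from -0.14 to 0.77. The difference between both sets of normal birds was 1.13 ± 0.24 (adjusted p = 0.0743), which did not pass, while 0.485% of all rows did. With the HINTW level as a covariate, which nearly marks the same 3 arrays, ANXA2 passed at 1.51 ± 0.22 (adjusted p = 0.039 in limma, 0.0433% of all rows). Over the 7 genes, affected against normal birds 1, 4 and 5 gave 0 past the adjusted threshold (2.3% of all rows) and 1, ANXA1, at an unadjusted p under 0.05 (19.1% of all rows). Normal birds 1, 4 and 5 against the other 3 gave 0, and 3 unadjusted, which were ANXA2, ANXA5 and ANXA7 (9.42% of all rows). Affected against normal birds 2, 3 and 6 gave 4 unadjusted (17.3% of all rows). These comparisons share birds. In these comparisons sex cannot be told apart from other properties of those 3 birds, and which of them goes with ANXA2 was not tested.

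ANXA5 binds phosphatidylserine and forms flat lattices on membranes. Normal birds 1 to 6 stood at 7.58, 6.13, 7.01, 7.44, 7.83 and 7.21, and affected birds 1 to 6 at 7.71, 7.75, 7.72, 8.39, 7.24 and 8.03. The groups overlapped: normal bird 5 lay above 4 of the affected birds. The difference was 0.61 ± 0.26 (log2 ± SE, adjusted p = 0.185 in limma), and it was 1.02 ± 0.27 (adjusted p = 0.131) without normal birds 1, 4 and 5. Without normal bird 2 alone it was 0.39 ± 0.19 (adjusted p = 0.273), and without normal bird 2 and affected bird 4 together it was 0.28 ± 0.17 (adjusted p = 0.427). For ANXA5 these are the lowest normal and the highest affected bird, so leaving them out could only shrink the difference.

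ANXA7, the first annexin described as aggregating vesicles, was split like ANXA2. Normal birds 1 to 6 stood at 5.87, 4.49, 5.15, 5.59, 6.00 and 5.004, and affected birds 1 to 6 at 5.74, 5.56, 6.06, 6.23, 5.44 and 6.48. Normal birds 2, 3 and 6 lay below all 6 affected birds, and normal birds 1, 4 and 5 lay among them. The difference was 0.57 ± 0.25 over all birds (adjusted p = 0.209 in limma) and 1.04 ± 0.24 without the 3 arrays (adjusted p = 0.114). Without normal bird 2 and affected bird 4 together it was 0.34 ± 0.23 (adjusted p = 0.480). Normal bird 2 was the lowest normal bird and affected bird 4 lay above the affected mean, so the difference could only shrink.

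For ANXA2, ANXA5 and ANXA7, then, all 6 affected birds lay above normal birds 2, 3 and 6. That is 3 of 7 genes, where 4.55% of all rows had this order and 4.15% the opposite. For the same 3 genes normal birds 1, 4 and 5 all lay above normal birds 2, 3 and 6, where 7.27% of all rows had this order and 6.81% the opposite. These counts rest on 3 birds on at least 1 side, and ANXA2, ANXA5 and ANXA7 varied together from bird to bird. With all 12 birds 0 of 7 genes had groups that did not overlap, beside 1.06% of all rows with all affected birds higher and 1.11% with all lower.

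**Figure D2:**
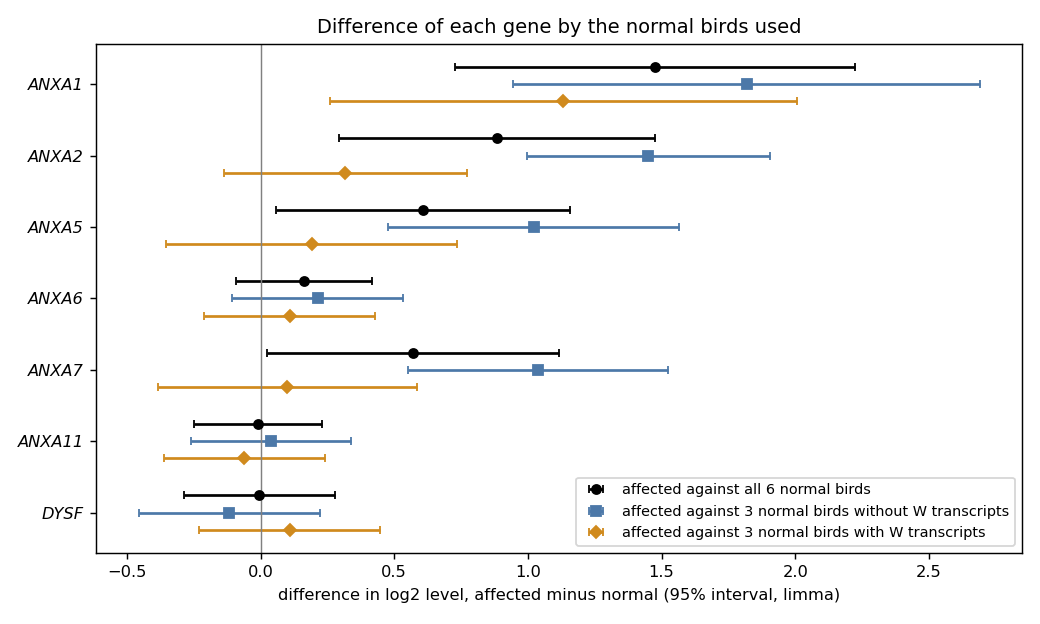
Difference in log2 level, affected minus normal (x axis), with limma's 95% interval, for each gene against all 6 normal birds (black), against normal birds 2, 3 and 6 (blue) and against normal birds 1, 4 and 5 with W transcripts (orange). ANXA2 goes from 1.45 against the blue set to 0.32 against the orange set, and ANXA7 from 1.04 to 0.10, while ANXA6, ANXA11 and DYSF stay near 0.

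ANXA6, the largest annexin and one that forms part of the repair cap in mouse muscle, varied little. Its level ran from 8.27 over a median of 8.35 to 8.69 in normal birds and from 8.34 over 8.53 to 8.93 in affected birds. Affected birds 4 and 6 lay above every normal bird and the other 4 within the normal range. The difference was 0.16 ± 0.12 (log2 ± SE, adjusted p = 0.434 in limma), and the 95% interval of the ratio ran from 0.937 to 1.33. Without normal birds 1, 4 and 5 it was 0.21 ± 0.15 (adjusted p = 0.474).

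ANXA11, which binds the calcium sensor ALG-2 and travels with RNA granules, ran from 6.83 over a median of 7.09 to 7.25 in normal birds and from 6.65 over 7.09 to 7.25 in affected birds. The groups overlapped, and affected bird 2, the lowest, lay below every normal bird. The difference was -0.01 ± 0.11 (log2 ± SE, adjusted p = 0.965 in limma), with a 95% interval of the ratio from 0.841 to 1.17. Without the 3 arrays it was 0.039 ± 0.14 (adjusted p = 0.907).

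DYSF, the gene whose loss causes limb-girdle muscular dystrophy and Miyoshi myopathy in humans, ran from 6.10 over a median of 6.39 to 6.90 in normal birds and from 6.15 over 6.42 to 6.67 in affected birds. Normal bird 2, the lowest bird for ANXA1, ANXA2, ANXA5, ANXA6 and ANXA7, was the highest for DYSF. The difference was -0.0040 ± 0.13 (log2 ± SE, adjusted p = 0.99 in limma), and the 95% interval of the ratio ran from 0.820 to 1.21. Without the 3 arrays it was -0.12 ± 0.16 (adjusted p = 0.733).

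The annexins differed in how much they varied between birds. Over the 12 birds ANXA1 covered a range of 3.68, ANXA2 of 2.44, ANXA5 of 2.26 and ANXA7 of 1.997 log2 units, against 0.66 for ANXA6, 0.60 for ANXA11 and 0.80 for DYSF. Normal bird 2 set the low end of the first 4 ranges. Without it the normal SD of ANXA1 was 0.24 in place of 0.76, and that of ANXA5 was 0.32 in place of 0.60.

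After each bird's group mean was subtracted, ANXA2 and ANXA7 varied together over the 12 birds. Pearson's r was 0.94 (permutation p = 0.00024, 0.00217 after adjustment over 21 pairs of genes) and Spearman's rho was 0.92 (permutation p = 0.0003, adjusted 0.00535). Without the 2 birds farthest from the median of ANXA2, r was 0.88, and it was 0.86 when each of the 3 sets of birds was centred on its own mean. ANXA1 and ANXA5 varied together as well, with r of 0.93 (permutation p = 0.00031, adjusted 0.00217) and rho of 0.87 (permutation p = 0.00051, adjusted 0.00535), and with r of 0.80 without the 2 birds farthest from the median of ANXA1. ANXA5 and ANXA7 had an r of 0.89 (permutation p = 0.00027, adjusted 0.00217) and a rho of 0.85 (permutation p = 0.00163, adjusted 0.0114), with r of 0.79 without the 2 farthest birds.

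Of the 21 pairs 6 passed in both measures after adjustment, and all 6 joined annexins. Besides those above, these were ANXA2 with ANXA5, ANXA1 with ANXA7 and ANXA6 with ANXA7. Their r was 0.82, 0.75 and 0.69, and it was 0.61, 0.43 and 0.48 without the 2 farthest birds. How often pairs of other genes pass was not measured, so the count is a description. DYSF passed with none of the 6 annexins. Its r with ANXA2 was -0.26 (permutation p = 0.521, adjusted 0.548) and its rho -0.15 (permutation p = 0.683, adjusted 0.797). Without the 2 birds farthest from the median of ANXA2 the r was 0.27, and without normal bird 2 alone it was 0.39, so its sign rests on that bird. Without normal bird 2 the r of DYSF with the 6 annexins ran from 0.30 (ANXA1) to 0.83 (ANXA6). For ANXA6 it was 0.39 with all 12 birds. Within the 6 affected birds alone the r ran from 0.18 (ANXA1) to 0.93 (ANXA2). Within the 6 normal birds it ran from -0.71 (ANXA5) to 0.14 (ANXA11). These subsets of birds were not tested.

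**Figure D3:**
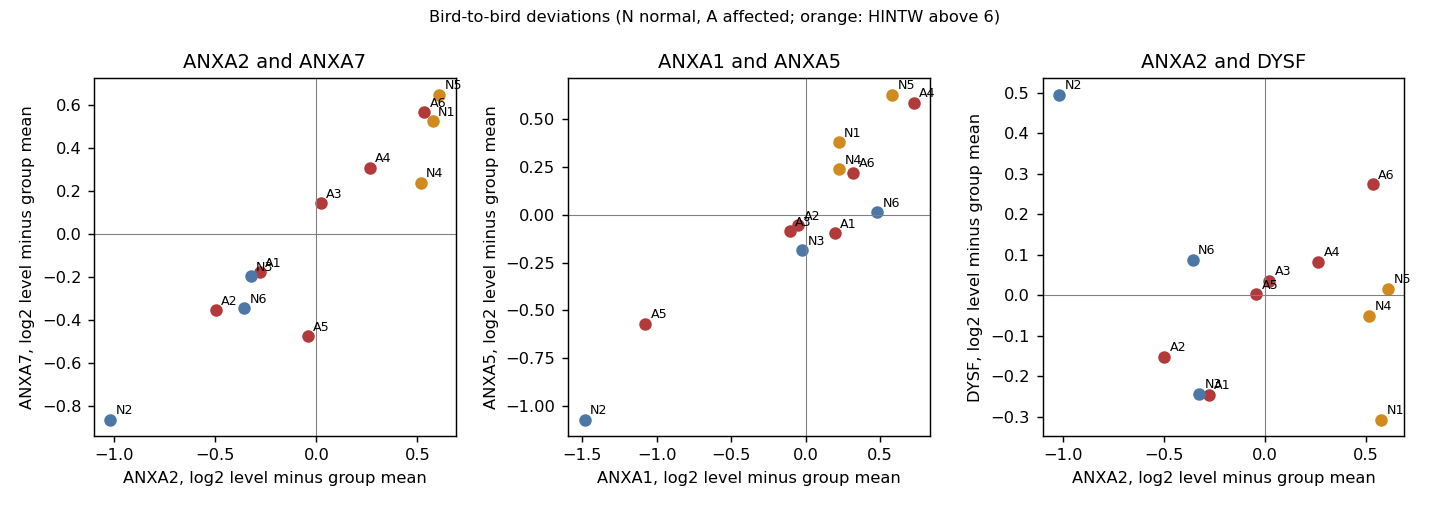
Log2 level minus the mean of the bird's group for 3 pairs of genes, 1 point per bird (N normal, A affected, with the bird's number), orange for normal birds with HINTW above 6, blue for other normal and red for affected birds. ANXA2 with ANXA7 (r = 0.94) and ANXA1 with ANXA5 (r = 0.93) follow a line, and for ANXA2 with DYSF (r = -0.26) normal bird 2 stands alone at the upper left.

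Markers of other cell types moved with some of the annexins. Fibroblast markers, of which 6 of 9 were measured with PDGFRA, LUM and COL1A1 first, had bird means of 5.90 to 8.18 in normal and 7.84 to 9.39 in affected muscle, with 0 of 6 past the test and a median difference of 1.02. At an unadjusted p under 0.05 in limma, 5 of these 6 were higher, where 10.6% of all rows were. Without normal birds 1, 4 and 5 all 6 were, where 17.7% of all rows reached it in either direction. Macrophage markers, of which 5 of 10 were measured with MARCO, MRC1 and C1QC first, ran from 4.08 to 4.64 and from 4.21 to 5.16 (0 of 5 past the test, median difference 0.33). LYZ of that list had a difference of -0.27, and the other 4 genes had positive differences. Slow fibre markers, 8 of 9 measured with TNNC1, TNNI1 and MYL2 first, ran from 4.83 to 6.18 and from 6.35 to 8.01, with a median difference of 1.02. Of these 8 genes 2 were higher (0.63% of all rows higher), CSRP3, a stretch-sensing LIM protein, by 3.30 ± 0.50 and MB, myoglobin, by 2.37 ± 0.36 (adjusted p = 0.0175 and 0.0169 in limma). At an unadjusted p under 0.05 with all birds, 4 of the 8 slow fibre and 1 of the 5 macrophage markers were higher. Without normal birds 1, 4 and 5 the differences of CSRP3 and MB were 3.79 ± 0.65 and 2.67 ± 0.44. Neither passed in that fit, at adjusted p of 0.0749 and 0.0710 in limma, where 0.0144% of all rows did. TNNC1 and MYL2 of the same list had differences of -0.33 and -0.18, which did not pass. The fibroblast, macrophage and slow fibre medians were 1.42, 0.40 and 1.53 without the 3 arrays. The other 6 lists had 0 genes past the test and median differences of -0.01 for endothelial (6 of 8 measured, PECAM1, CDH5 and KDR first), 0.12 for T cell and leukocyte (6 of 6, PTPRC, CD3E and CD3D first), 0.04 for adipocyte (2 of 5, PLIN1 and ADIPOQ), 0.07 for erythrocyte (4 of 9, HBAD, HBA1 and HBE first), 0.04 for smooth muscle and pericyte (3 of 5, MYH11, TAGLN and RGS5) and -0.02 for satellite cell markers (3 of 4, PAX7, MYOD1 and MYOG). In the T cell and leukocyte list CD4 and CD8A had differences of -0.06 and -0.09, and the other 4 genes had positive ones. The normal SD of PTPRC was 1.04, against 0.16 to 0.35 for the other genes of that list. No detection calls are among the values used, so none of the markers in any list can be called absent or near 0.

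In ANXA1 the bird-to-bird variation within groups followed the fibroblast mean, with r of 0.96 (permutation p = 8e-05, adjusted 0.0028 over 70 relations of 7 genes with 10 lists) and rho of 0.91 (permutation p = 0.00026, adjusted 0.0112). Without the 2 birds farthest from the median of ANXA1 the r was 0.86. In ANXA5 the same r was 0.94 (permutation p = 0.00021, adjusted 0.00367) and rho 0.90 (permutation p = 0.00048, adjusted 0.0112), with r of 0.90 without the 2 farthest birds. ANXA1 also followed the macrophage mean, with r of 0.87 (permutation p = 0.00012, adjusted 0.0028), rho of 0.83 (permutation p = 0.00224, adjusted 0.0392) and r of 0.83 without the 2 farthest birds. ANXA7 did so too, with r of 0.76 (permutation p = 0.00123, adjusted 0.0172), rho of 0.87 (permutation p = 0.00048, adjusted 0.0112) and r of 0.68 without the 2 farthest birds. These 4 of the 70 relations passed in both measures after adjustment, and 9 passed by r. By r alone ANXA5 passed with the macrophage (0.86), T cell and leukocyte (0.81) and slow fibre means (0.78). The rho of ANXA5 with the macrophage mean was 0.77 (permutation p = 0.00369, adjusted 0.0517). Also by r alone, ANXA1 passed with the T cell and leukocyte mean (0.81) and ANXA7 with the fibroblast mean (0.77). Without the 2 farthest birds these r of ANXA5 were 0.90, 0.66 and 0.80, that of ANXA1 0.76 and that of ANXA7 0.59. Without normal bird 2 alone they were 0.89, 0.66 and 0.68 for ANXA5, 0.66 for ANXA1 and 0.60 for ANXA7. How often other genes pass with these lists was not measured. For ANXA2 the fibroblast mean gave an r of 0.71 (permutation p = 0.0174, adjusted 0.0872) and a rho of 0.52 (permutation p = 0.103, adjusted 0.344), and with r of 0.40 without the 2 farthest birds. DYSF had an r of -0.37 with the fibroblast mean (permutation p = 0.299, adjusted 0.581) and a rho of 0.13 (permutation p = 0.698, adjusted 0.938), with r of 0.50 without the 2 farthest birds. The part of fibroblasts, macrophages, T cells and other leukocytes or slow fibres in the annexin differences was not tested.

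In normal birds 1, 4 and 5 the fibroblast mean was 8.01, 7.83 and 8.07, and in normal birds 2, 3 and 6 it was 5.90, 7.40 and 8.18. Birds 2 and 3 lay below birds 1, 4 and 5, as they did for ANXA2, ANXA5 and ANXA7. Normal bird 6 was the highest normal bird for the fibroblast mean. At 8.18 it lay above affected bird 5 (7.84) and below every other affected bird. For ANXA2 (8.60), ANXA5 (7.21) and ANXA7 (5.004) normal bird 6 lay below all 6 affected birds. For ANXA5 the lowest affected bird, bird 5, was close to it at 7.24. For ANXA1 normal bird 6 stood at 6.89, above affected bird 5 at 6.81.

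**Figure D4:**
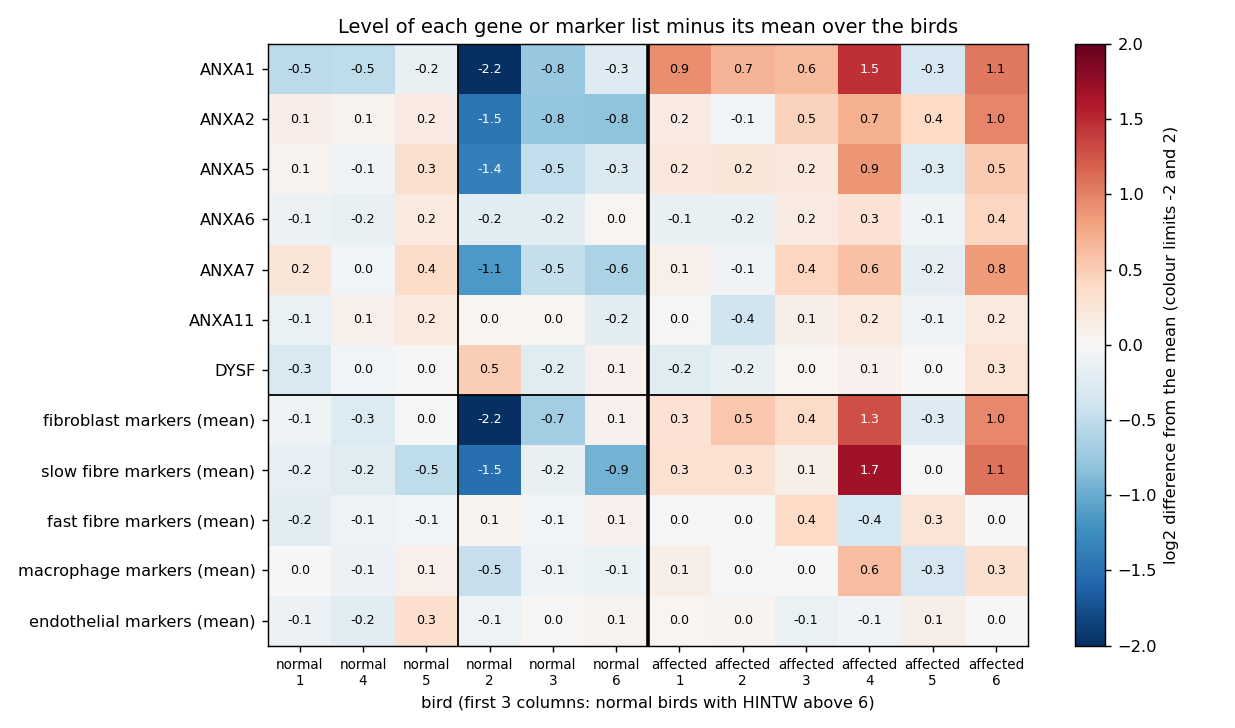
Log2 level minus its mean over all birds (colour and printed value) for each gene and for the mean of 5 marker lists, 1 column per bird, with normal birds 1, 4 and 5 (HINTW above 6) at the left, normal birds 2, 3 and 6 next and affected birds at the right. ANXA1, ANXA5 and the fibroblast mean are lowest in normal bird 2 and highest in affected bird 4, and ANXA2 and ANXA7 are low in normal birds 2, 3 and 6.

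The genes most like each annexin were sought among 6705 other named genes above the median level, by Pearson's r over the 12 birds after subtraction of group means. These values describe the best of many and carry no test. For ANXA1 they were COL1A1 (r = 0.98, rho = 0.95), the main chain of type I collagen, LUM (r = 0.97, rho = 0.93), a proteoglycan of collagen fibrils, and ALOX5AP (r = 0.97, rho = 0.85), a leukotriene synthesis protein of leukocytes. For ANXA5 they were MSN (r = 0.99, rho = 0.95), which ties membranes to actin, PTBP1 (r = 0.97, rho = 0.96), a splicing regulator, and ARPC5 (r = 0.97, rho = 0.95), a subunit of the actin-branching complex. COL1A1 and LUM are themselves part of the fibroblast mean, so their r with ANXA1 is not separate from that of the fibroblast mean.

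For ANXA2 the closest genes were TGFB3 (r = 0.94, rho = 0.90), a TGF-beta ligand, PGM3 (r = 0.94, rho = 0.93), an enzyme of amino sugar synthesis, and STARD13 (r = 0.94, rho = 0.87). For ANXA7 they were RPS6KA1 (r = 0.97, rho = 0.94), a kinase downstream of ERK, VIM (r = 0.96, rho = 0.94), vimentin, and TMEM123 (r = 0.94, rho = 0.92). With the 3 sets of birds each centred on its own mean, r was 0.86 for TGFB3, 0.83 for PGM3 and 0.94 for STARD13 with ANXA2, and 0.97 for RPS6KA1, 0.91 for VIM and 0.90 for TMEM123 with ANXA7.

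For ANXA6 the closest genes were PLXNA1 (r = 0.94, rho = 0.96), a semaphorin receptor, TUBB3 (r = 0.93, rho = 0.94), a tubulin, and NOVA1 (r = 0.92, rho = 0.90), a splicing factor. For ANXA11 they were LMCD1 (r = 0.90, rho = 0.87), TXNDC11 (r = 0.87, rho = 0.77) and SPG20 (r = 0.87, rho = 0.80). For DYSF they were SPTAN1 (r = 0.84, rho = 0.90), the spectrin of the membrane skeleton, AP3D1 (r = 0.83, rho = 0.80), a subunit of a vesicle adaptor, and JAK1 (r = 0.82, rho = 0.86), a cytokine receptor kinase.

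Other genes of membrane repair and of the sarcolemma were followed in 8 lists. Of 73 genes listed 44 were measured, and 0 passed the adjusted threshold in either direction in limma, with all birds or without normal birds 1, 4 and 5. At an unadjusted p under 0.05, 3 were higher (10.6% of all rows) and 2 were lower (11.5% of all rows). The median difference of the 44 genes was -0.0049. The annexin partners S100A4, S100A6, S100A10, S100A11, AHNAK and AHNAK2 are not analysed here.

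Of the other annexins 3 of 7 listed were measured, and of the other ferlins 3 of 4, and those measured had low and even levels. ANXA3, ANXA4, ANXA8, ANXA9 and FER1L5 are not analysed here. ANXA13, the one with the smallest p of 3 measured other annexins, averaged 2.30 in normal and 2.20 in affected birds (adjusted p = 0.474 in limma). Of 3 measured ferlins OTOF, the ferlin of hair cell synapses, had a difference of -0.20 ± 0.08 (adjusted p = 0.151), at 3.12 and 2.92. Neither gene came with a detection call.

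Among caveola and membrane-bending genes 5 of 12 were measured (CAVIN4 under its older symbol MURC), with a median difference of 0.12. Without normal birds 1, 4 and 5 that median was -0.0021. PACSIN3, a muscle F-BAR protein, had a difference of 0.33 ± 0.12 (adjusted p = 0.152 in limma), and of 0.47 ± 0.13 without those birds (adjusted p = 0.137). Of 7 measured genes of patch formation and exocytosis, ANO5, a membrane protein whose loss causes muscular dystrophy in humans, had the smallest p, with a difference of 0.17 ± 0.08 (adjusted p = 0.23), and the list's median was 0.17. CAPN3, the only calpain of the list that was measured, had a difference of -0.15 ± 0.23 (adjusted p = 0.722), and of -0.43 ± 0.24 without normal birds 1, 4 and 5 (adjusted p = 0.370).

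The ESCRT proteins shed damaged membrane from the cell surface, and all 14 listed were measured, with a median difference of 0.0032. TSG101, an ESCRT-I subunit, averaged 6.78 ± 0.14 (SD, n = 6) in normal birds and 6.45 ± 0.16 in affected birds, a difference of -0.33 ± 0.09 (adjusted p = 0.0791 in limma, and -0.27 at 0.242 without normal birds 1, 4 and 5). Of 11 measured dystrophin complex genes LAMA2, the laminin chain that the complex binds outside the fibre, had a difference of 1.004 ± 0.24 (adjusted p = 0.0553, and 0.87 at 0.180 without the 3 birds), and the list's median was -0.03.

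**Figure D5:**
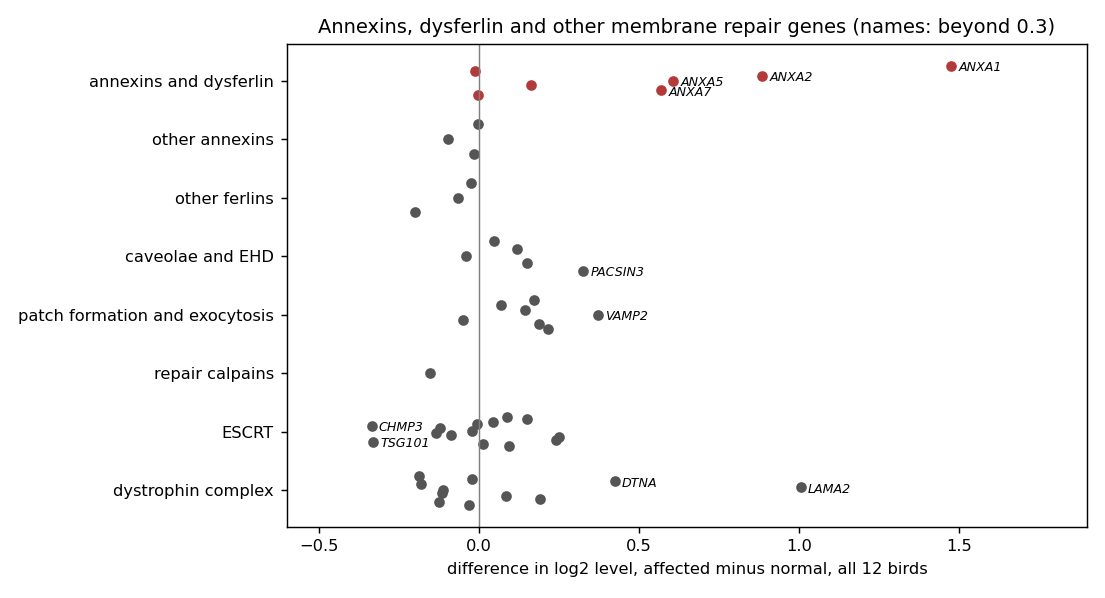
Difference in log2 level, affected minus normal over all 12 birds (x axis), 1 point per gene, by list (y axis). Red points are the 7 genes described here, and genes beyond 0.3 in either direction are named. ANXA1 at 1.48 and LAMA2 at 1.004 lie farthest to the right. The lists of other annexins and other ferlins, which hold none of the 7 genes, lie at or just below 0.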

How the data were processed

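For each of 12 birds 150 ng of muscle RNA went onto an Affymetrix whole-transcript array, per the labels' protocols. Partek is the tool that the submitters' processing notes list, with no role. For background correction, summarization and build, the method is not given in the sources used here. Levels as deposited by the authors were taken as log2, the base being inferred from their range of 1.04 to 12.9. How arrays had been scaled is not stated, and their number limits the precision. Rows were named from the platform annotation (12300 of 20804 with 1 symbol), and chromosomes came from an NCBI gene table.

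Differences were fitted with limma 3.58.1 in R 4.3.3 (lmFit, eBayes) on all rows, with Benjamini-Hochberg adjustment and a threshold of 0.05. Intervals are 95% from the moderated standard error. The fit was tested on simulated data with independent noise and planted differences. Those data hold no bird that stands apart and no variation shared between genes, so they do not cover these features. Permutations of bird deviations, 100000 in number, were drawn within groups. Genes named beyond the set were, in each list, those past the threshold or otherwise the one with the smallest p, the first 3 measured markers of the lists shown, and the 3 nearest genes. The genes and lists were chosen with earlier results of these data known. Bird numbers only name birds and pair none. The labels give no scan batch, and their running numbers go on from normal to affected birds, so order of handling and phenotype cannot be told apart. Alternatives covered scaling, row filters, array weights and each bird left out.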

Additional observations from a re-analysis of the deposited data

Results flagged for a closer look

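ANXA1 in normal bird 2 stood at 4.93, far from the other 5 normal birds, which lay between 6.39 and 6.99. Of the 14 groups of 6 birds checked with Dixon's test this was the 1 past its 95% critical value, and chance flags about 1 in 20 groups. Without that bird the difference of ANXA1 was 1.18 (adjusted p = 0.0620 in limma).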

How the results depend on the processing

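None of the 7 genes passed in the fit as reported, and 1 passed under some alternatives. That gene was ANXA1 after median centring, with rows above the median level only, with rows of 1 gene symbol, with array weights, and without normal bird 6 or affected bird 5, and it was ANXA2 with HINTW as a covariate and against normal birds 2, 3 and 6 in the fit of 3 sets. When each bird was left out in turn, between 0 and 1 of the 7 genes passed. Of the 44 other genes 1 passed, LAMA2, after median centring, with rows above the median level, with rows of 1 symbol and with array weights, and between 0 and 1 passed when 1 bird was left out. ANXA1, ANXA2, ANXA5, ANXA6 and ANXA7 kept a positive difference in all alternatives run. When 1 bird was left out, the difference of ANXA1 ran from 1.18 to 1.69, of ANXA2 from 0.68 to 1.01, of ANXA5 from 0.39 to 0.73, of ANXA6 from 0.09 to 0.22, of ANXA7 from 0.40 to 0.70, of ANXA11 from -0.055 to 0.069 and of DYSF from -0.065 to 0.10. ANXA11 changed sign to 0.039 without the 3 arrays with W transcripts and against normal birds 2, 3 and 6 in the fit of 3 sets. It also changed sign to 0.050 with the covariate and to 0.0087 after median centring. DYSF changed sign to 0.078 without normal bird 2 and affected bird 4 together, to 0.015 after median centring and to 0.11 against normal birds 1, 4 and 5. Each of these ANXA11 and DYSF values was smaller than its own SE, so their sign is not resolved. Why it changed was not tested. Without normal bird 2 and affected bird 4 together the difference of ANXA5 was 0.28 and that of ANXA7 was 0.34. Both birds widen these differences, so leaving them out could only shrink the values. Without normal bird 2 alone ANXA5 was at 0.39 and ANXA7 at 0.40. Over all rows 238 passed as reported, and between 1 and 588 when 1 bird was left out.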
